A study of Rattus norvegicus with 3 samples.

Results

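The regions described here are the 488 Seh1 peaks of rat oligodendrocyte progenitor cells (OPC) that the authors' deposited annotation places in a CpG island. They were taken by 1 rule, a detailed annotation that starts with CpG, from 9084 annotated OPC peaks, of which they are 5.37% (95% exact binomial interval 4.92 to 5.86%). HOMER, the annotation program, gave this label only where a peak lay between genes or inside an intron. Of the 488 peaks 292 were intergenic and 196 intronic, so islands at promoters and exons are not among them. The label read plain CpG in 472 peaks and carried a number in the other 16. For short, such a peak is called an island here, although 2 peaks can lie in 1 island.

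Chromatin was precipitated with an antibody to Seh1 from immature oligodendrocytes (iOL) and from OPC, and with IgG from iOL, 1 library each. The source of all 3 was forebrain of Sprague Dawley rats at postnatal day 1 to 2. OPC were kept in PDGF-AA, bFGF, NT3 and CNTF, and iOL had lost the PDGF-AA, bFGF and NT3 and received triiodothyronine (T3) at 60 nM for 1 day. How many pups went into a library is not given in the sources used here, and the IgG profile was not analysed here. The iOL list held 6704 peaks of 209 bp and the OPC list 9117 peaks of 205 bp on build rn6. Read totals are not given either, so depth is unknown, all intervals cover counting error only, and with 1 library a stage no test was made between stages or between sets of peaks. Peaks carry no expression values, so the identity of the cells could not be checked by their markers.

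CpG islands are stretches of DNA that kept their CpG dinucleotides because they are mostly unmethylated in the germ line, while CpG is depleted elsewhere in mammalian genomes. Most promoters of broadly expressed genes and of developmental regulators lie in one, and proteins with CXXC domains and Polycomb complexes bind there. Islands away from annotated promoters, often called orphan islands, can hold unannotated start sites or distal regulatory elements. Seh1 is a subunit of the Y complex of the nuclear pore and of the GATOR2 complex of mTORC1 signalling, and the title of the series places it with Olig2, a lineage factor that binds E-box motifs, and Brd7, a bromodomain protein.

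The peaks nearest to a transcription start site (TSS) allow a look at sequence, since RefSeq windows of the promoter of their genes (build GRCr8) were at hand. Below are the windows of 4 of the 10 genes whose CpG island peak lay closest to the TSS, from 250 bases before the annotated start to 30 after it. Phc1 and Cbx6 encode subunits of Polycomb complex PRC1, Sp1 a factor that binds GC boxes and Rpsa a protein of the small ribosomal subunit. These genes were picked after their values were seen, to show how dense CpG is beside these peaks. Capitals mark each CpG dinucleotide, and every sequence runs 5′ to 3′ on the gene's strand.
Phc1, chr4:157204531-157204810, minus strand: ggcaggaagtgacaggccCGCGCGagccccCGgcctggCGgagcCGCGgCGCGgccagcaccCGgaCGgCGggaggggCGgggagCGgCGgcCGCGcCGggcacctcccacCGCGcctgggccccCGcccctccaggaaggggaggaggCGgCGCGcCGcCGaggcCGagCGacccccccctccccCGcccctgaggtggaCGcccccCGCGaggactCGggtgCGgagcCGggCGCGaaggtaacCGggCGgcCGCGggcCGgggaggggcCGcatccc
Cbx6, chr7:113263384-113263663, minus strand: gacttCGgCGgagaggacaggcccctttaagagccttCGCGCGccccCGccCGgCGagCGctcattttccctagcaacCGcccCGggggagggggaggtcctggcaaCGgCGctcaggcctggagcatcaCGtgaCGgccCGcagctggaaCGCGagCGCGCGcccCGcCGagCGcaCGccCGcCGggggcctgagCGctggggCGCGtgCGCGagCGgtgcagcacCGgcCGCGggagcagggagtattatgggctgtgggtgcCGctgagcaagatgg
Sp1, chr7:135419800-135420079, plus strand: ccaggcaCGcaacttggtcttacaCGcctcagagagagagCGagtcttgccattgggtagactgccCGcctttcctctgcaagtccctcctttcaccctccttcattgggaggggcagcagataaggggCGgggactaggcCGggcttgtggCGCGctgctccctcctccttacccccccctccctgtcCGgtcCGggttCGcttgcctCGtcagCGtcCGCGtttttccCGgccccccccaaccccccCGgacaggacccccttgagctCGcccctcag
Rpsa, chr8:128728629-128728908, plus strand: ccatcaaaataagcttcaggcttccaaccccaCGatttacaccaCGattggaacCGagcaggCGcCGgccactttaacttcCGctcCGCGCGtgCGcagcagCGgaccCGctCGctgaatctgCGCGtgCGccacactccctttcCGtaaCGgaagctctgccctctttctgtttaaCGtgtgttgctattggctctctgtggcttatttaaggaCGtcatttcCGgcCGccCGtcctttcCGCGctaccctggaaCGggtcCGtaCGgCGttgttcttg

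The Phc1 window held 43 CpG in 280 bases, with 83.9% G+C and a CpG ratio (observed over expected from the C and G content) of 0.873. Counts were 37 CpG for Cbx6 (73.6% G+C, ratio 0.984), 18 for Sp1 (66.1%, ratio 0.616) and 29 for Rpsa (57.9%, ratio 1.28). Their Seh1 peaks, on build rn6, were chr4:155115949-155116153 (Phc1), chr7:121057810-121058014 (Cbx6), chr7:144014189-144014393 (Sp1) and chr8:128806129-128806333 (Rpsa), all in intron 1. The peaks were centred 102 (Rpsa) to 118 bp (Sp1) downstream of the TSS, so the windows end near the edge of the peak and do not show its middle. The sequence under the peaks was not read, because no genome of build rn6 was used here. The start in GRCr8 may also differ from the rn6 start behind the distances.

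Among genes with a CpG island peak within 1 kb of the TSS, 125 of 152 (82.2%) had a promoter window in the RefSeq table, 250 bases before to 50 after the first start listed. Their median CpG ratio was 0.889 (95% interval of the median 0.852 to 0.937), against 0.417 over 27457 promoters. Their median G+C was 66.3%, against 52.3%, and a ratio of at least 0.6 was reached by 92.8% (86.8 to 96.7%), against 36.9%. The island label and the short distance chose these genes, so a high ratio is a check of the label and not a separate result. Genes whose CpG island peak lay more than 50 kb away had a median ratio of 0.633 over 100 windows (82.0% of 122 genes), a value set against no other group here. Of genes with other intron or intergenic peaks under 80% had a window, the share below which such a check is taken as void, so islands were not compared with them. The GC box GGGCGG, searched on both strands, was in 99 of the 125 windows (79.2%) and in 34.9% of all promoters. This motif consists of G and C and holds a CpG, so its share in windows chosen by the island label is no separate result either. The E-box CAGCTG was in 16.0% of the 125 and 15.1% of all. The E-box CATCTG was in 9.60% (5.06 to 16.2%) and 16.3% (15.8 to 16.7%), with intervals that overlap. Motif shares were not adjusted for G+C. In the printed windows GGGCGG occurred 4 times for Phc1, 2 times for Cbx6, and 1 time each for Sp1 and Rpsa, and CAGCTG 1 time, for Cbx6.

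**Figure D1:**
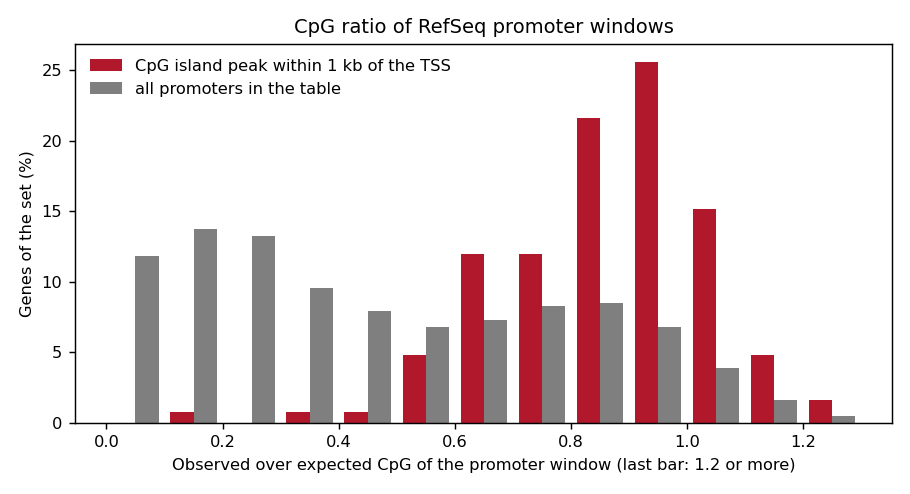
Observed over expected CpG (x axis, ratio without unit) of RefSeq promoter windows, as percent of genes (y axis), for 125 genes with a CpG island peak within 1 kb of the TSS (red) and all 27457 promoters (grey). The red bars centre on a median of 0.889 and the grey ones, spread widely, on 0.417.

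By position the peaks fell into a near group and a distant group. The near group held 152 peaks (31.1% of 488, 95% exact binomial interval 27.1 to 35.5%) within 1 kb of a TSS, and all 152 were intronic and downstream of it, at a median of 289 bp. Of them 145 lay in intron 1 and 7 in intron 2, and for 146 the intron belonged to the transcript whose TSS was nearest. No peak was closer than 101 bp. HOMER assigns its promoter class, upstream and just downstream of a TSS, before the intron and intergenic classes, so the downstream position of the near group follows from the annotation and is no finding. Of the other 7340 intron and intergenic peaks, to which the same order applies, 98 (1.34%, 1.09 to 1.62%) lay within 1 kb. CpG island peaks were thus 60.8% of the 250 intron peaks within 1 kb of a TSS (54.4 to 66.9%), 20.8% of the 159 intron and intergenic peaks at 1 to 2 kb and 4.08% of the 7419 beyond 2 kb. Many promoters lie in islands, so the label that chose these peaks itself goes with a short distance. The islands of the genome as a whole were not counted here. Whether island peaks of Seh1 lie closer to a TSS than islands in general was not tested.

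The distant group was mostly intergenic, 292 of 336 peaks, with a median distance of 30642 bp for intergenic peaks and a range from 1041 to 3486078 bp. Upstream positions were the more common: 92 of the 292 intergenic peaks were downstream of the nearest TSS (31.5%, 95% exact binomial interval 26.2 to 37.2%), against 40.8% of 4862 other intergenic peaks (39.4 to 42.2%). Beyond 10 kb these shares were 35.8% of 226 (29.6 to 42.5%) and 43.7% of 4328 (42.2 to 45.2%), with intervals that overlap. Of the other intergenic peaks without a repeat label, 45.4% of 2284 were downstream beyond 10 kb (43.3 to 47.4%). That interval does not overlap the one of the islands. From 1 to 2 kb all 23 intergenic CpG island peaks were upstream, and so were all 65 of the other intergenic peaks. A peak inside a gene is not classed as intergenic, so the upstream side near a TSS goes with the class and is no finding. Those 23 stood before the promoters of, among others, the homeobox genes Nkx2-8 (-1214 bp, score 9.58) and Nkx2-1 (-1511 bp), the zinc finger gene Bcl11a (-1436 bp), the BMP inhibitor gene Smad6 (-1447 bp), the RNA-binding protein gene Hnrnpk (-1241 bp, score 9.58) and the adenylyl cyclase gene Adcy5 (-1041 bp).

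**Figure D2:**
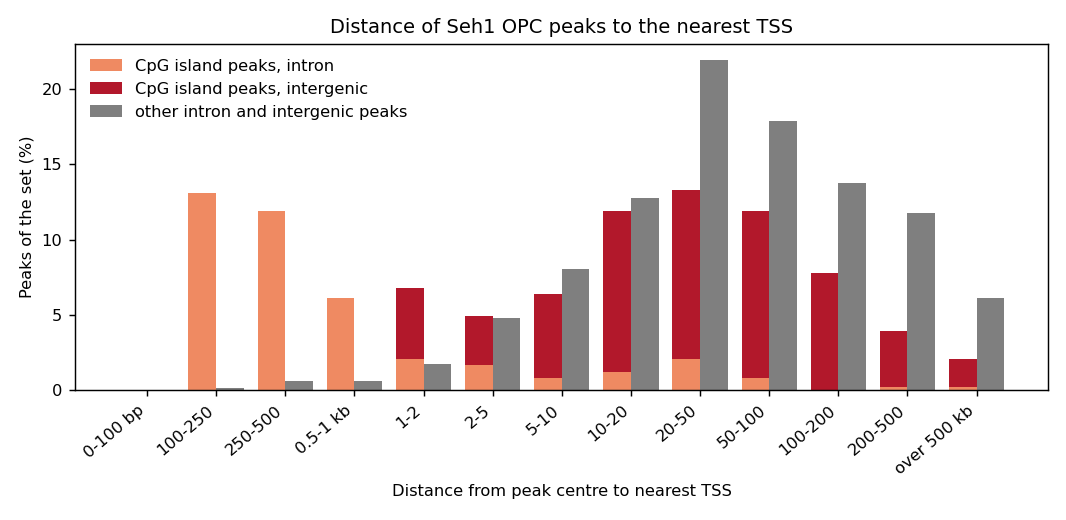
Percent of each set of OPC peaks (y axis) by distance from the peak centre to the nearest TSS (x axis, bins in bp and kb), for CpG island peaks in introns (orange) and between genes (dark red, stacked on them) and for the other 7340 intron and intergenic peaks (grey). CpG island peaks have 1 mode from 100 bp to 1 kb, made of intron peaks, and another at 10 to 100 kb, made mostly of intergenic peaks, while 1.34% of the other peaks are within 1 kb.

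Intronic islands lay mostly at the start of the gene. Intron 1 took 166 of 196 (84.7%, 95% exact binomial interval 78.9 to 89.4%), against 665 of 2478 other intron peaks (26.8%, 25.1 to 28.6%). Introns 4 and later took 14 of 196 (7.14%), against 48.2% of the others. The contrast goes with distance: among intron peaks within 1 kb of a TSS, 145 of 152 islands (95.4%) and 94 of 98 others (95.9%) were in intron 1. Among these 14 were intron 11 of 23 of Shank3, a scaffold protein gene of excitatory synapses (24372 bp from the TSS, score 7.66), intron 8 of 31 of the synaptic gene Rims1 (344200 bp, 6.38), intron 4 of 7 of Mnt, a MAX-binding repressor gene (7091 bp, 6.38), and intron 6 of 13 of the parathyroid hormone receptor gene Pth1r (14802 bp, 8.94).

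The caller's score of each peak, the authors' own value with no definition in the header, is used here only to rank within the list. Its median was 7.66 in the CpG island peaks, with quartiles of 7.02 and 8.3, and likewise 7.66 over all 9084 annotated peaks. Scores above the middle were more common in islands: 182 of 488 reached 8 (37.3%, 95% exact binomial interval 33.0 to 41.8%), against 1909 of 7340 other intron and intergenic peaks (26.0%, 25 to 27.0%) and 34.8% of 365 promoter peaks (29.9 to 39.9%). The share was 39.0% for intergenic and 34.7% for intronic islands, whose intervals (33.4 to 44.9% and 28.1 to 41.8%) overlap. Within 1 kb of a TSS the shares were 34.9% of 152 islands (27.3 to 43.0%) and 23.5% of 98 other intron peaks (15.5 to 33.1%), with intervals that overlap. Islands were 36 of the 501 annotated peaks with a score of at least 10 (7.19%, 5.08 to 9.81%) and 11 of the 110 with at least 13 (10%, 5.10 to 17.2%), beside 5.37% of all annotated peaks.

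One island stood far above the rest. It lay between genes (chr4:77401233-77401437), at -54324 bp from Ezh2, which encodes the H3K27 methyltransferase of PRC2, and had a score of 100.2, the fourth highest of all annotated peaks. It is 46408 bp from the highest peak of the list, its focus ratio was 0.702, and the nearest iOL peak was 528352 bp away. Without it the mean score of the islands was 7.97, against 8.16 with it. The next score, 31.3, belonged to an island at 41000 bp from the TSS of Atp5l, a subunit gene of ATP synthase (chr8:49186171-49186375), which was shared with iOL and had a focus ratio of 0.914.

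Next came an island 2042 bp upstream of Fcgr2a, an Fc receptor gene of myeloid cells (chr13:91162029-91162233, score 19.8). The other 7 of the highest 10 had scores from 16.6 to 13.4, where Zfp131 ties with an intergenic island near Arhgef39 and takes the last place by chromosome order. They lay near the SUMO protease gene Uspl1 (35201 bp, chr12:6921611-6921815), the olfactory receptor gene Olr1637 (7448 bp, chr15:27990260-27990464), the zinc finger developmental gene Zic5 (56376 bp, chr15:108842225-108842429), the ribonuclease gene Rnase4 (-1634 bp, chr15:28016304-28016508), the membrane fusion gene Stx11 (46492 bp, chr1:7018276-7018480), in intron 1 of the integrin gene Itgae (11534 bp, chr10:59663981-59664185) and near the zinc finger gene Zfp131 (-125442 bp, chr2:52656425-52656629). Of these 10 peaks 9 were intergenic and none was within 1 kb of a TSS.

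At the other end 11 islands had the lowest score, 5.75. Taken in order of chromosome name, the first 5 of them were in intron 1 of Det1 (165 bp), near Fgfbp3 (12366 bp), in intron 1 of Cdc42se2 (155 bp), near Usp42 (-3543 bp) and in intron 4 of Fcrlb (4470 bp). The farthest from any TSS were intergenic islands at -3486078 bp from Cobl, -2903704 bp from Veph1, 1861239 bp from Copb1, -1125927 bp from Stx19 and -1001562 bp from Erap1, and the highest score among these 5 was 12.8, at Erap1, the others having 6.38 to 8.3.

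The focus ratio is a second deposited value of each peak that lies between 0 and 1. Its median in islands was 0.737 (95% interval of the median 0.727 to 0.750), with quartiles of 0.682 and 0.792, against 0.786 (0.778 to 0.786) in the other intron and intergenic peaks. Promoter peaks stood between, at 0.750 (0.737 to 0.765). Within each of 8 scores from 5.75 to 10.2 the median of the islands was below that of the others, 8 of 8, for example 0.737 over 121 islands against 0.786 over 2212 others at a score of 7.02. Gaps were smaller at 5.75 (0.750 over 11 islands against 0.765) and at 9.58 (0.762 over 21 islands against 0.773). No interval was computed within a score. Intergenic and intronic islands had near-equal medians, 0.737 and 0.739. Near a TSS the gap was small: within 1 kb the median was 0.739 in islands (0.720 to 0.750) and 0.750 in other intron peaks (0.727 to 0.765), and these intervals overlap. The header does not define the ratio, and whether sequence composition moves it was not tested.

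**Figure D3:**
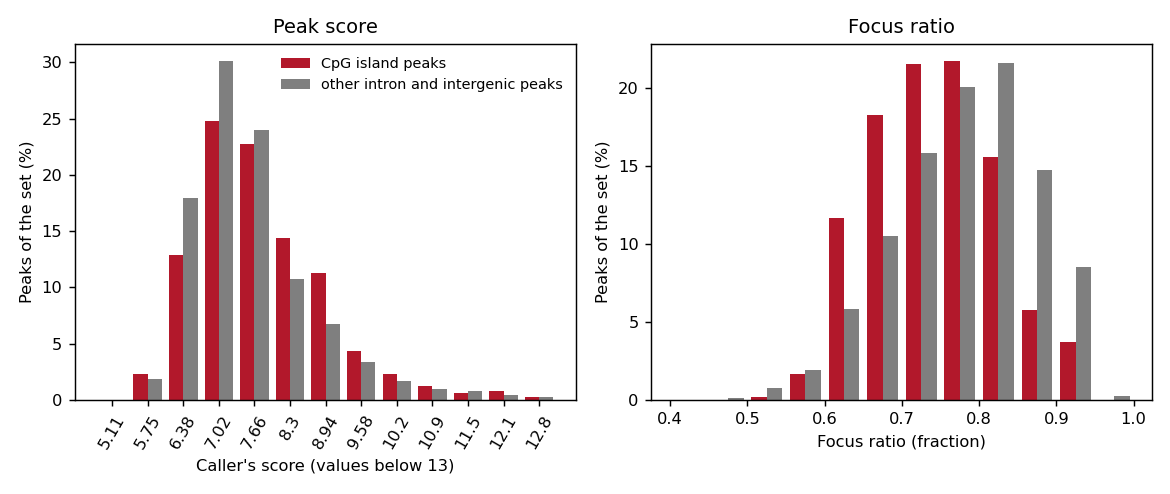
Percent of each set (y axes) by the caller's score (left, values below 13, x axis without unit) and by focus ratio (right, x axis as a fraction in bins of 0.05), for 488 CpG island peaks (red) and 7340 other intron and intergenic peaks (grey). Islands have the larger share from a score of 8.3 to 10.9 and the larger share at focus ratios of 0.6 to 0.8, and 11 islands with scores of 13 or more are not in the left panel.

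Sharing with iOL was rare: 12 of the 488 islands met an iOL peak in 1 bp or more, 2.46% (95% exact binomial interval 1.28 to 4.26%), against 1.73% of all 9084 annotated OPC peaks. They overlapped 12 of the 6704 iOL peaks, 0.179% of that list. All 12 were intergenic, 4.11% of 292 (2.14 to 7.07%), against 2.02% of 4862 other intergenic peaks (1.64 to 2.45%). Of the intronic islands 0 of 196 overlapped, which allows a share of up to 1.53% by a floor of 3 counts and up to 1.86% by the exact interval, and of other intron peaks 1.13% of 2478 did. The intervals of islands and others overlap in both the intergenic and the intronic pair. Other intron and intergenic peaks without a repeat label were shared in 0.810% of 4320 (0.565 to 1.12%), whose interval lies below that of the islands over all scores. Within score ranges, with intron and intergenic peaks pooled, the intervals overlap: such peaks without a repeat label were shared in 0.670% of 4181 below a score of 10 (0.445 to 0.966%) and in 5.04% of 139 at 10 or more (2.05 to 10.1%). Among intergenic peaks alone the result below a score of 10 depends on the comparison set. There 8 of 267 islands were shared, 3.00% (1.30 to 5.82%), against 0.842% of 2495 peaks without a repeat label (0.522 to 1.28%). These intervals just fail to overlap. Over all other intergenic peaks below 10 the share was 1.16% of 4576 (0.869 to 1.51%), and that interval overlaps the one of the islands. At 10 or more the intervals of islands and of peaks without a repeat label overlap, with 16% of 25 islands (4.54 to 36.1%) and 6.45% of 93 such peaks (2.40 to 13.5%).

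The widest overlap, 204 bp, was at an island 13401 bp from Hist1h2bo, an H2B gene of the large histone cluster (chr17:44744667-44744871, score 10.2). The island near Atp5l followed with 195 bp, that near Rnase4 with 176 bp, an island 82733 bp from the olfactory receptor gene Olr1278 with 171 bp (chr15:36020521-36020725, score 6.38), and 1 at -15025 bp from Tbl1xr1, a subunit gene of the NCoR corepressor, with 168 bp (chr2:107217927-107218131, 8.94). An island near Arhgef39 overlapped by 166 bp (7022 bp, chr5:58994655-58994859, 13.4), and 1 near the septin gene Septin8 by 147 bp (-40418 bp, chr10:38836902-38837106, 8.94). The remaining 5 overlapped by 113 to 74 bp. They were near Hdhd2 (-67179 bp, chr18:73159349-73159553), Tmem167b (8318 bp, chr2:211344120-211344324), the calcium-binding protein gene Necab1 (-113949 bp, chr5:28851403-28851607), Bcor, a corepressor gene of a variant PRC1 (84255 bp, chrX:11733142-11733346), and the teashirt zinc finger gene Tshz3 (-2448 bp, chr1:92777309-92777513).

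Scores of the 12 ran from 5.75 to 31.3. Of islands with a score of at least 10, 4 of 36 met an iOL peak (11.1%, interval 3.11 to 26.1%), against 8 of 452 below 10 (1.77%, 0.767 to 3.46%). The other intron and intergenic peaks had 15.1% of 383 and 0.977% of 6957 in the same score ranges. Another 5 islands had an iOL peak within 1 kb without overlap, near Rbl2 (157 bp apart), Chst9 (252 bp), Plppr1 (369 bp), Tac4 (413 bp) and in intron 1 of H3f3b, a gene of histone H3.3 (858 bp). Only the H3f3b island is in the near group, 270 bp from its TSS. Over a wider range the shares were close: 9.43% of islands (6.98 to 12.4%) and 9.63% of the others had an iOL peak within 10 kb.

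**Figure D4:**
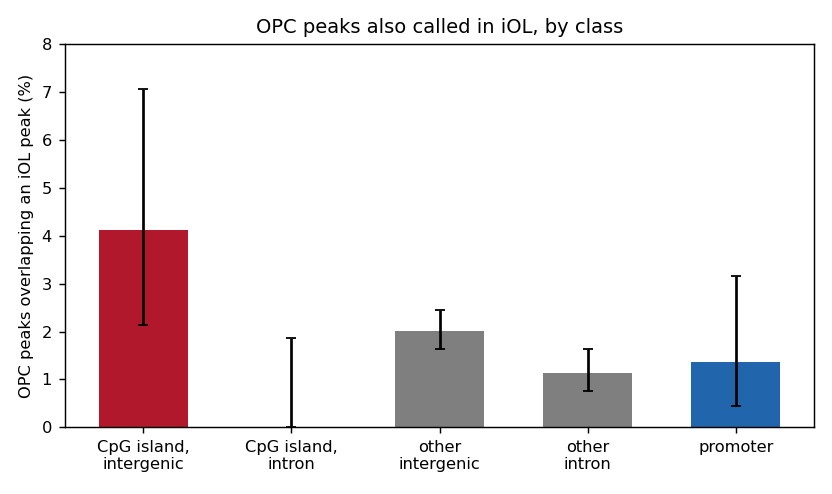
Percent of OPC peaks that overlap an iOL peak by at least 1 bp (y axis) for intergenic and intronic CpG island peaks, other intergenic and intron peaks, and promoter peaks (x axis), with 95% exact binomial intervals as bars. Intergenic islands stand at 4.11% with an interval of 2.14 to 7.07%, and intronic islands at 0 of 196.

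The nearest genes of the 488 islands were 473, of which 15 had 2 islands and 0 had 3 or more. Nearest genes were protein-coding for 476 islands and non-coding RNA genes for 12. In the near group the highest scores, 11.5, were in intron 1 of Kitlg, the gene of stem cell factor (339 bp from the TSS, chr7:42270021-42270225), and of the splicing factor gene Hnrnpm (645 bp, chr7:18553501-18553705). Scores of 10.9 followed at the ESCRT gene Vps37b (192 bp), Ndrg3 (234 bp), the dynactin gene Dctn2 (256 bp), the Wnt receptor gene Fzd3 (480 bp) and the translation factor gene Eif4g2 (678 bp), and scores of 10.2 at the splicing factor gene Tra2b (189 bp), the DNA repair gene Rad50 (318 bp) and Rbm45 (447 bp). The 10 closest peaks were 101 to 125 bp from the TSS of Pcbd1, Rpsa, Phc1, Mroh1, Adh5, Atg10, Usp43, Cbx6, Sp1 and Eif3el1. All of these had intron 1 positions and scores from 6.38 to 8.3.

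Of the 152 genes with an island peak within 1 kb, 5 also had a promoter peak (3.29%), namely Dazap2, Grid1, Ppp1r18, Cxadr and Hnrnpm. Over all 5796 genes with any annotated peak, promoter peaks included, 365 had a promoter peak (6.30%). Neighbouring islands were few: 8 of the 488 had another within 5 kb, in 4 pairs 193 to 714 bp apart. The pairs were upstream of Mpped2, Acsl3 and the H4 gene Hist1h4b and near the hemojuvelin gene Hfe2, and whether a pair shares an island was not examined. An OPC peak without the island label lay within 5 kb of 30 islands (6.15%).

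Gene groups are described by counts and shares. Shares of lists and families were not adjusted for distance to a TSS or for the number of groups read. Whether a share goes beyond that of CpG islands in general near the same genes was not tested. The Polycomb and Trithorax list, which also holds DNA methylation and CXXC genes, had islands nearest to 7 of 55 genes (12.7%). Of these islands 5 were within 50 kb of the TSS and 2 within 1 kb. The 7 islands made 7 of its 30 OPC peaks, 23.3%, with an exact binomial interval of 9.93 to 42.3%, against 5.37% of peaks over all genes. Their nearest genes were Ezh2, Bcor, both described above, Phc1 (score 7.66), Cbx6 (117 bp, 6.38), the chromobox gene Cbx7 (-17365 bp, 7.66), the CXXC gene Cxxc5 (30139 bp, 8.94) and the chromobox gene Cbx8 (-40732 bp, 8.3), the last in intron 1 of a neighbouring transcript. Chromobox proteins of this class bind trimethylated H3K27, the mark that Ezh2 writes.

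Hedgehog and FGF signalling had islands at 6 of 40 genes, 14.6% of that list's 41 peaks (5.57 to 29.2%). All were within 10 kb of a TSS and all but Ptch1 and Fgf12 in intron 1. The ligand gene Ihh had its island at 546 bp (score 8.94), Shh, the ligand known to induce the oligodendrocyte lineage in the ventral neural tube, at 2142 bp (8.3), the receptor gene Ptch1 at -7073 bp (7.02), the FGF antagonist gene Spry4 at 642 bp (7.66), the receptor gene Fgfr3 at 1174 bp (7.66) and Fgf12 at -1065 bp (6.38).

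Homeobox genes had islands at 10 of 150, with 11 of the list's 124 peaks (8.87%, 4.51 to 15.3%), and 0 of the 11 were within 1 kb of a TSS. The list lacks Nkx2-8 and Tshz3, given above, and its 6 genes with the closest islands were Nkx2-1 (-1511 and 13208 bp, scores 7.02 and 8.3), Prox1 (-2959 bp, 10.2), Nkx2-3 (4094 bp, 7.66), Hoxd1 (-10369 bp, 8.94), Hmx1 (10793 bp, 7.02) and Lhx4 (14144 bp, 7.02). Pax, Sox, Fox, T-box and Gata genes had 2 of 77, Pax5 (6882 bp) and Pax3 (-23701 bp), 2.00% of the list's 100 peaks (0.243 to 7.04%). Basic helix-loop-helix genes had 2 of 55, the Notch effector gene Hes1 (-113469 bp, 8.3) and Msc (411325 bp, 7.02), 4.17% of the list's 48 peaks (0.509 to 14.3%). Of 76 Wnt, Notch and BMP genes 4 had an island: Fzd3, Smad6, Smad5 (23179 bp) and Wnt11 (-23805 bp). These islands made 5.13% of that list's 78 peaks (1.41 to 12.6%). The intervals of all lists in this paragraph hold 5.37%, the share over all annotated peaks.

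Lists of the lineage had shares whose intervals hold the 5.37% of all annotated peaks: 5.66% of 53 peaks for OPC genes and inhibitors of differentiation, 2.33% of 43 for lineage regulators and 6.67% of 30 for myelin genes. Of 38 OPC genes and inhibitors of differentiation 3 had an island, Etv5, an ETS factor gene downstream of FGF (339 bp, score 7.02), Hes1 and Pcdh15 (-399185 bp), which was also the 1 of 37 cadherin and protocadherin genes. The cadherin and protocadherin share was 2.08% of 48 peaks (0.0527 to 11.1%). Of 37 lineage regulators 1 had an island, Bcl11a, and of 35 myelin genes 2, Tmem2 (-14591 bp, 6.38) and the tight junction gene Cldn11 (-53937 bp, 7.66). Of 34 nucleoporin and GATOR2 genes 1 had an island, Nup54 (420 bp, 8.94), a subunit of the central channel of the pore. That island made 5.56% of the list's 18 peaks (0.141 to 27.3%). For other cell types counts were 2 of 22 astrocyte genes (Fgfr3, and Glul at 326911 bp), 0 of 28 neuron genes, 0 of 21 microglia genes and 0 of 21 vascular genes. The astrocyte share was 7.69% of 26 peaks (0.946 to 25.1%). Any OPC peak was nearest to between 33.3% (vascular) and 62.3% (Pax, Sox, Fox, T-box and Gata) of the genes of a list, and the 3 lists with a count of 0 held few peaks, 15 (neuron), 10 (microglia) and 11 (vascular).

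Families were read from the gene descriptions, and their shares are to be set beside the 5.37% of all annotated peaks. Histone cluster genes had 4 islands among 11 annotated peaks (36.4%, exact binomial interval 10.9 to 69.2%), 2 at Hist1h4b and 1 each at Hist1h2bl (-10373 bp) and Hist1h2bo, all on chromosome 17. The 2 at Hist1h4b are a pair 538 bp apart that may share an island, while the interval takes all peaks as independent. Translation initiation factor genes had 8 of 31 (25.8%, 11.9 to 44.6%), at Eif3el1, Eif5a2 (203 bp), Eif4e3 (203 bp), Eif5b (382 bp), Eif4a1 (515 bp), Eif4g2 and, with 2, Eif4g3 (4009 and -52459 bp), and 6 of these 8 were in the near group. Genes with ubiquitin in the description had 11 of 93 (11.8%, 6.05 to 20.2%), 7 of them near. Island peaks were 60.8% of all intron peaks within 1 kb of a TSS, and whether the family shares go with distance was not tested. The intervals of all other families read hold 5.37%. Shares were 8.61% of 151 peaks for homeobox, 7.59% of 224 for zinc finger, 6.74% of 193 for solute carrier and 5.45% of 165 for transcription factor genes. They were 4.94% of 81 for ribosomal protein, 4.43% of 384 for kinase and 10.5% of 19 for proteasome genes. Forkhead box genes had 0 of 40 (up to 8.81%), potassium channel genes 1 of 88 (up to 6.17%) and olfactory receptor genes 3 of 110 (up to 7.76%). MicroRNA genes had 9 of 181 (4.97%), none within 1 kb, among them Mir9-2, a source of the neural miRNA miR-9 (-8183 bp, 8.94), Mir193b (-10659 bp, 12.1), Mir31 (-28423 bp, 6.38) and Mir708 (-36760 bp, 8.94).

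Across chromosomes islands made up between 2.46% of annotated peaks on chromosome 16 (7 of 284, 95% exact binomial interval 0.997 to 5.01%) and 7% on chromosome 17 (21 of 300, 4.39 to 10.5%), and chromosome Y had 0 of 3. Those intervals overlap each other. Chromosome X had 5 islands, 1 of them shared with iOL. Shared islands were spread over 9 chromosomes, with 2 each on chromosomes 2, 5 and 15.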

How the data were processed

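Seh1 ChIP-seq peaks of OPC and iOL, 1 library each, were analysed. Fixation was in 1% formaldehyde (10 min), stopped by glycine at 125 mM, per the labels. The submitters' processing notes name Bowtie2 and HOMER and the builds rn6 and hg18, without saying what each was used for. Peak thresholds, duplicate removal and the treatment of multiply mapped reads were not found in the labels or headers, and each could change which peaks are listed. The annotated table is filed under iOL, but its header names HOMER, an OPC library of Seh1 and the IgG library. Each of the 9084 rows has the coordinates of an OPC peak, 0 have those of an iOL peak, and it was therefore used for OPC, and the other 33 OPC peaks have no annotation. The score and the focus ratio, a fraction, are the authors' deposited values per peak, and distances to a TSS are those of the deposited annotation.

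Overlap means at least 1 bp. Shares have exact binomial 95% intervals and medians order-statistic intervals, computed in Python 3.11.15 with scipy 1.17.1 and checked on made-up peaks. No test was run. The other intron and intergenic peaks are the 7340 without the CpG label. Gene IDs matched the GRCr8 gene table for 485 of the 488 peaks, and 2 date-like symbols were replaced through it. Motifs were searched on both strands, as present or absent in each window, and in the printed windows as a number of sites. Genes were named by rule: the 10 highest scores, all peaks shared with iOL, the 10 closest to a TSS, the 5 lowest and 5 farthest, and up to 6 per list. Those named for near-group scores, printed promoters, positions at 1 to 2 kb, late introns, pairs, gaps to iOL and families were picked after their values were seen. The peaks, gene lists and families were chosen with earlier results of these data known.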

Additional observations from a re-analysis of the deposited data

How the results depend on the processing

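Of 20 alternatives 13 left the value within its interval or, for counts, within 1.5 times, but 1 of these 13, the promoter CpG ratio of genes with an island within 5 kb (0.855), is void because 79.6% of the genes had a window. The share of islands overlapping an iOL peak was 1.84 to 4.11% under a wider minimum overlap, gaps of up to 1000 bp, scores of at least 8 and intergenic islands alone. The share near a TSS grew to 42.8% with a limit of 5 kb and to 77.6% among intronic islands, as those limits widen or narrow the set. The downstream share was 75.8% within 10 kb of a TSS and 38.4% beyond 1 kb, against 57.6% in all, because the near group is downstream by the annotation's order. A mean in place of the median score of 7.66 gave 8.16, and 7.97 without the highest island. Genes of the gene lists with an island numbered 38, and 15 with a score of at least 8, as fewer peaks then enter. Restricting to intergenic or intronic islands, to beyond 1 kb, and leaving out the highest island were chosen after seeing the data. Leaving out the region near Ezh2 kept the median score at 7.66. No paired analysis was possible because each stage has 1 library and no test was run. Depth is unknown, so an island absent from the iOL list is not shown to lack Seh1 in iOL.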
